A study of Schizosaccharomyces pombe with 10 samples.

Results

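Among the transcripts of fission yeast that differed most between bag101 overexpression and vector control, 9 protein-coding genes with no well-defined function were followed: lsd90, ish1, rds1, mug147, prl65, hry1, SPBPB21E7.11, SPAC186.04c and SPAC3G6.07. They were chosen by their log2 fold changes, as being among the largest rises in this same comparison, so their differences between the groups are given as a description and without a test. All 9 genes were found among the 7017 counted features, and all 9 were among the 4681 that passed the filter on low counts, which 4 of them passed on their overexpression libraries, with under 1 CPM (reads per 1000000 gene reads of the library, whose total is scaled by TMM) in each control.

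The study compared 5 Schizosaccharomyces pombe samples with overexpressed bag101 and 5 samples that carried a vector. Both groups were labelled wild type and grew in the minimal medium EMM2 at 29 °C, and total RNA was extracted with hot phenol. The sources used here do not give the promoter, the length of induction, the strain background beyond wild type or the library kit. Bag101 encodes a BAG-domain protein, a co-chaperone that binds the chaperone Hsp70, and the comparison asks which transcripts differ when it is overexpressed.

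Fission yeast answers many stresses, among them heat, oxidants, osmotic shock and starvation, with a common transcription programme that depends on the MAP kinase Sty1 and the bZIP factors Atf1 and Pcr1, which bind the sequence TGACGT. A drop in glucose lowers protein kinase A activity and lets the zinc finger factor Rst2 act through elements with the core CCCCT, while the heat shock factor binds repeats of GAA. Several of the 9 genes are known from such responses or from meiosis. Lsd90 is known as a stress-induced gene, ish1 encodes a stress-responsive protein of the nuclear envelope, rds1 was described for its regulation by nutrients and temperature, and mug stands for meiotically upregulated gene. Hry1 is annotated as a protein with an HHE cation-binding domain, a fold known from hemerythrin. The annotation calls SPBPB21E7.11, SPAC186.04c and SPAC3G6.07 uncharacterized.

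The upstream sequences of lsd90 and hry1 are shown because they belong to the gene with the highest level per length of exon and to the gene with the largest fold difference. Each is the 250 bases before the annotated transcript start, written 5′ to 3′ on the gene's strand, from RefSeq assembly ASM294v3. For lsd90, on chromosome II, the annotation gives no untranslated region, so the start is that of the coding sequence. Capitals mark the CCCCT match that begins 60 bases before the start. For hry1, on chromosome I, capitals mark a 30-base segment and its exact copy next to it, which begin 121 and 91 bases before the start.
lsd90: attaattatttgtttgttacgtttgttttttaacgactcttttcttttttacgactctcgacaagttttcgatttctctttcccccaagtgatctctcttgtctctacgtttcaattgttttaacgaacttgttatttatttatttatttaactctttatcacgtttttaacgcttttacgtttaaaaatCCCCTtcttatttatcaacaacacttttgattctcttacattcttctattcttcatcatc
hry1: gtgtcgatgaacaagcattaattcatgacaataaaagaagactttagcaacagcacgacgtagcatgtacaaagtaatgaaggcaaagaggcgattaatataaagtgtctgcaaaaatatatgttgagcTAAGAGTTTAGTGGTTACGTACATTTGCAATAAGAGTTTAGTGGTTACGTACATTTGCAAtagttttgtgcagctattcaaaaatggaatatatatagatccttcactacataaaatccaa
Among 5102 upstream windows of protein-coding genes, that of hry1 was the only one (0.0196%) with an exact direct repeat of 30 bases or more that does not overlap itself.

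The 4 genes with a TGACGT match in the window from 250 bases before to 50 bases after the start were mug147, ish1, rds1 and SPAC3G6.07. Their matches began 157, 75, 104 and 90 bases before the start, in that order of genes. They are printed as 30 bases on the strand that reads TGACGT, in capitals, from the same assembly. Mug147 and ish1 lie on chromosome II, and rds1 and SPAC3G6.07 on chromosome I.
mug147: acgacgcctctaTGACGTtttgccttgaat
ish1: agataatctaacTGACGTaaactccctcga
rds1: tcggtctcagctTGACGTgtgacttggtac
SPAC3G6.07: gtaagatcagaaTGACGTtttgatccgcac
TGACGT on either strand occurred in 4 of the 9 windows and in 5.92% of 5103 windows of protein-coding genes. CCCCT occurred in 2 of 9, lsd90 and ish1, and in 10.4% of all windows. GAANNTTC, a pair of GAA units in opposite orientation, occurred in 0 of 9 and in 11.1% of all windows. Ish1 was the only one of the 9 with matches to both TGACGT and CCCCT. The matches are descriptions of letters in these windows and say nothing of binding.

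The libraries held 10.2 to 10.9 M (1000000) gene reads with overexpression and 5.54 to 11.8 M in controls. Bag101 itself had 0 reads in all 10 libraries and is wholly covered by other counted genes in the annotation, so its level could not check the labels. Reads that overlapped more than 1 gene were left out of the counts and made up 13.7 to 16.3% of listed reads with overexpression and 10.9 to 13.1% in controls. The median log2 fold change over all tested genes was -0.03 with trimmed-mean (TMM) scaling, -0.22 with upper-quartile scaling and -0.39 with library totals. Values below are relative to the TMM scale. In these bulk samples, more cells that express a gene and more RNA per cell cannot be told apart.

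The 9 genes took 3.18, 3.25, 3.37, 3.48 and 3.20% of all gene reads in the 5 overexpression libraries, against 0.0313, 0.0258, 0.0292, 0.0304 and 0.0293% in the 5 controls. The means were 3.30% with overexpression and 0.0292% in controls, and the shares lay close together within each group. Lsd90 alone accounted for 2.05 to 2.40% of gene reads with overexpression and for 0.00714 to 0.00880% in controls. The other 8 genes together took 1.12 ± 0.0586% with overexpression and 0.0210 ± 0.00214% in controls (SD, n = 5 each).

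**Figure D1:**
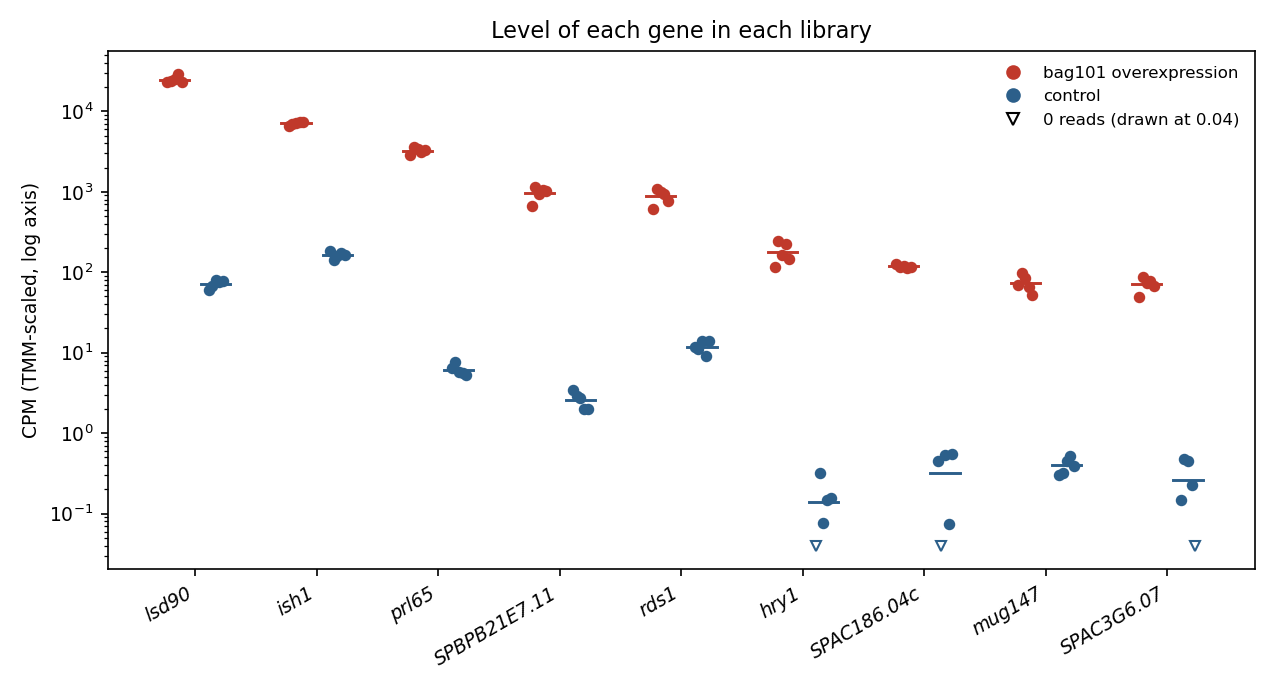
Level of each of the 9 genes in each library, in TMM-scaled CPM on a log axis. Points are libraries (bag101 overexpression left, control right), short lines are means of 5 libraries, and open triangles mark a library with 0 reads. The groups are apart for every gene, from 24687 CPM with overexpression against 72.2 CPM in controls for lsd90 to 71.0 against 0.263 CPM for SPAC3G6.07. Over all tested genes, 36.3% were higher with no overlap between the groups. The 9 were chosen by this comparison, so nothing is read from their separation here or below.

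Lsd90 (SPBC16E9.16c, a protein of 757 residues) is a stress-induced gene named after a large and small daughter phenotype. It had 22917, 23549, 25066, 28797 and 23105 CPM in overexpression replicates 1 to 5, against 60.4, 67.7, 79.5, 76.1 and 77.2 CPM in control replicates 1 to 5. The overexpression libraries lay close together, with replicate 4 highest, and the groups did not overlap. Lsd90 averaged 24687 ± 2448 CPM with overexpression and 72.2 ± 7.97 CPM in controls (SD, n = 5 each), and the difference was 8.42 ± 0.15 (SE) on the log2 scale. It ranked 1 to 3 among all features by reads in the overexpression libraries and 2283 to 2704 in the controls.

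Ish1 (SPBC365.12c, 684 residues) encodes an Ish-domain protein of the nuclear envelope. It had 6581, 6912, 7213, 7369.7 and 7463 CPM in the overexpression libraries, against 182, 140.0, 161, 174 and 164 CPM in the controls. It was the least different of the 9 and had the highest control level per length of exon, and its overexpression libraries differed by less than those of any other of the 9. The means were 7108 ± 361 CPM with overexpression and 164 ± 15.8 CPM in controls (SD, n = 5 each), and the difference was 5.43 ± 0.10 (SE) on the log2 scale. The gene grp2 on the opposite strand covers 24.4% of its exons and was listed at 0 reads in all libraries. Grp2 is itself wholly covered by other counted features, so its 0 reads do not show a low level.

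Rds1 (SPAC343.12, 402 residues) is known from work on its regulation by glucose, ammonium, phosphate, carbon dioxide and temperature. It had 615, 1087, 997, 938 and 775 CPM in the overexpression libraries, against 11.7, 11.1, 13.8, 8.99 and 13.8 CPM in the controls. Overexpression replicate 1 was the lowest of its group and still far above every control. Rds1 averaged 883 ± 188 CPM with overexpression and 11.9 ± 2.03 CPM in controls (SD, n = 5 each), and the difference was 6.21 ± 0.19 (SE) on the log2 scale. Only 11.2% of its exon length was free of another counted gene, SPAC343.20 on the opposite strand, so the count covers a small part of the transcript. SPAC343.20 did not pass the test, with 0.807 ± 0.235 CPM with overexpression and 0.956 ± 0.192 CPM in controls (SD, n = 5 each) and an adjusted p of 0.51 in edgeR's quasi-likelihood test. The exon length of SPAC343.20 free of other counted features was 14.8%, so these values do not show its full level.

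Mug147 (SPBC56F2.06, 411 residues) was named for a rise during meiosis. It had 69.4, 99.0, 84.7, 65.0 and 51.7 CPM in the overexpression libraries, against 0.299, 0.322, 0.458, 0.524 and 0.395 CPM in the controls, which is 2 to 7 reads in a control. Replicate 2 was highest and replicate 5 lowest with overexpression, and the groups did not overlap. The log2 fold change was 7.46 ± 0.26 (SE), and the pooled ratio of 3472 to 24 reads, scaled to library size, was 181 with an exact 95% interval of 121 to 283 that covers counting error only. The non-coding RNA SPNCRNA.1668 on the opposite strand covers 79.4% of its exons. SPNCRNA.1668 also rose, by 4.78 ± 0.33 (SE) on the log2 scale (adjusted p = 2.12e-09, edgeR). Only 3.49% of its own exon length was free of other counted features, with 256 reads over the overexpression libraries and 11 over the controls. SPNCRNA.1668 passed the filter only on its overexpression libraries, which limits what its p-value shows. Reads in the overlap were left out, so the mug147 count rests on the other 20.6% of its exon length. The part of SPNCRNA.1668 in those reads was not tested.

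Prl65 (SPAC19A8.16) has a reading frame of 65 residues, the shortest of the 9. It had 2827, 3651, 3406, 3096 and 3259 CPM in the overexpression libraries, against 6.43, 7.57, 5.80, 5.62 and 5.29 CPM in the controls. The lowest overexpression library, at 2827 CPM, was far above the highest control, at 7.57 CPM. Prl65 averaged 3248 ± 311 CPM with overexpression and 6.14 ± 0.90 CPM in controls (SD, n = 5 each), and the difference was 9.07 ± 0.13 (SE) on the log2 scale. The annotated non-coding RNA SPNCRNA.3110, not analysed here, lies opposite 75.3% of its exons, and without strand its reads and those of prl65 cannot be told apart.

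Hry1 (SPAC869.06c, 203 residues) carries the HHE cation-binding domain and the upstream repeat printed above. It had 115, 247, 163, 227 and 147 CPM in the overexpression libraries, from 1172, 2335, 1477, 2011 and 1380 reads, against 0, 2, 1, 2 and 2 reads in the controls. The controls were at or under the 3 reads that a count of 0 allows, and the overexpression libraries differed among themselves by 2.15-fold. Hry1 averaged 179.7 ± 55.4 CPM with overexpression and 0.141 ± 0.120 CPM in controls (SD, n = 5 each). The pooled ratio of 8375 to 7 reads, scaled to library size, was 1495 with an exact 95% interval of 725 to 3720.2 for counting error. Its log2 fold change of 10.42 ± 0.44 (SE) was the largest of all tested genes and has the largest error of the 9. The antisense RNA prl108, not analysed here, is annotated across all of hry1, and reads of the pair cannot be told apart without strand.

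SPBPB21E7.11 (164 residues, uncharacterized) had 658, 1156, 941, 1045 and 1018 CPM in the overexpression libraries, against 3.44, 2.90, 2.75, 2.02 and 1.98 CPM in the controls. Overexpression replicate 1 was again the lowest, and the groups did not overlap. The gene averaged 963 ± 188 CPM with overexpression and 2.62 ± 0.620 CPM in controls (SD, n = 5 each), and the difference was 8.53 ± 0.20 (SE) on the log2 scale. SPBPB21E7.10 on the opposite strand covers 40.5% of its exons and had 1 read over all libraries. Only 5.70% of the exon length of SPBPB21E7.10 is free of other counted features, so this read count does not show a low level.

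SPAC186.04c (175 residues, uncharacterized) had 128, 115, 119, 113 and 117 CPM in the overexpression libraries, against 6, 0, 7, 1 and 7 reads in the controls. Its overexpression libraries were nearly level, and replicate 1 was the highest of them. The means were 118 ± 6.08 CPM with overexpression and 0.322 ± 0.264 CPM in controls (SD, n = 5 each), and the difference was 8.33 ± 0.17 (SE) on the log2 scale. The pooled ratio was 332 with an exact 95% interval of 217 to 536 for counting error, which is wider than this SE would give. The protein has 1 relative in S. pombe, SPAC977.17, annotated as a member of the MIP superfamily of water and solute channels, with 68.8% identity over 141 residues or 80.6% of the length of SPAC186.04c. SPAC977.17 rose to 248 ± 41.1 CPM with overexpression, against 16.3 ± 1.03 CPM in controls (SD, n = 5 each), or by 3.94 ± 0.11 (SE) on the log2 scale (adjusted p = 1.37e-13, edgeR). The transcripts share 72.0% identity over 410 bases, and no stretch of 50 bases or more matched at 95% or more. The other 8 proteins had no relative at an e-value of 1e-10 or below.

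SPAC3G6.07 (125 residues, uncharacterized) had 48.8, 88.1, 73.0, 76.8 and 68.2 CPM in the overexpression libraries, against 2, 3, 6, 3 and 0 reads in the controls. Overexpression replicate 1 was the lowest and replicate 2 the highest, and the groups did not overlap. The log2 fold change was 8.14 ± 0.29 (SE), and the pooled ratio of 3313 to 14 reads was 296 with an exact 95% interval of 176 to 542 for counting error.

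In the order of log2 fold changes, hry1, prl65, SPBPB21E7.11, lsd90 and SPAC186.04c held ranks 1 to 5 of the 4681 tested genes. SPAC3G6.07 was 9th, mug147 19th, rds1 36th and ish1 54th. In the whole table, 64 genes (1.37%) had a log2 fold change above 5, all 9 among them by choice, and 41 (0.876%) one above 6. The edgeR test at an adjusted p threshold of 0.05 called 83.6% of all tested genes, of which those higher made up 40.4% and those lower 43.2% of the tested genes, and 36.3% were higher with no overlap between the groups. Since this comparison chose the 9, nothing is read from their own count. Genes outside the 9 stood between them: the non-coding RNA SPNCRNA.1480 at 8.32 ± 0.20 (SE), the metallothionein gene zym1 at 8.30 ± 0.16, SPNCRNA.1611 at 8.22 ± 0.14 and the α-glucosidase gene agl1 at 7.97 ± 0.21. In this order SPBPB21E7.11 and lsd90, lsd90 and SPAC186.04c, and SPAC186.04c and SPAC3G6.07 differ by less than the larger of their standard errors.

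**Figure D2:**
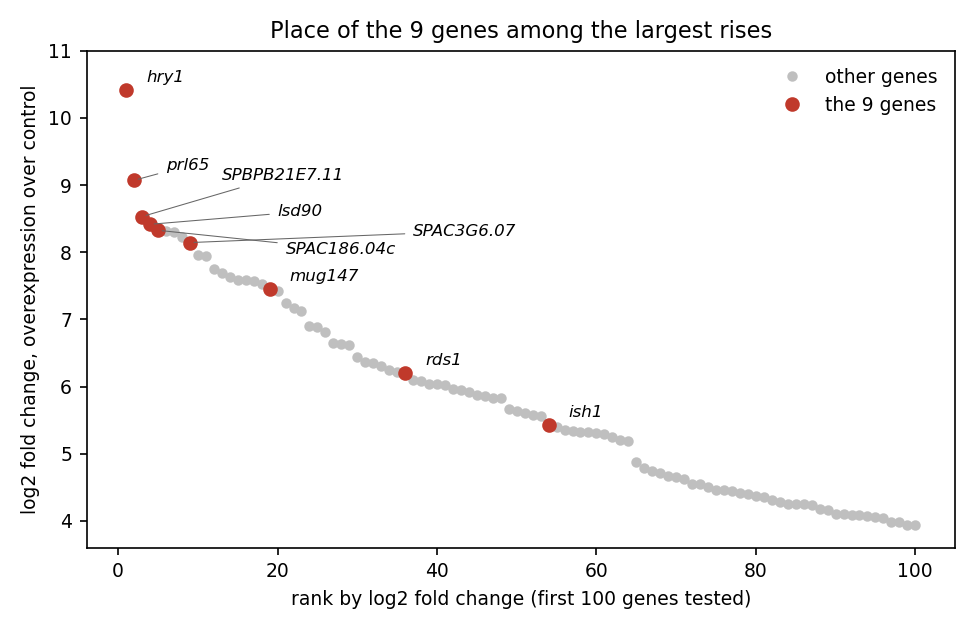
Log2 fold change (bag101 overexpression over control) against rank for the first 100 tested genes. Red points are the 9 genes and grey points all others, and the 9 occupy ranks 1 to 5, 9, 19, 36 and 54.

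Levels of different genes were compared per kilobase of annotated exon. In the overexpression libraries lsd90 stood at 10856 ± 1076 CPM per kb, prl65 at 6696 ± 642, ish1 at 2745 ± 139, SPBPB21E7.11 at 787 ± 153, rds1 at 458 ± 97.5 and hry1 at 251 ± 77.3 (SD, n = 5 libraries). SPAC186.04c at 114 ± 5.85 and SPAC3G6.07 at 105 ± 21.4 CPM per kb did not differ beyond their spread, and mug147 was lowest at 41.7 ± 10.3. The control order was different at the top, with ish1 at 63.4 ± 6.08 CPM per kb above lsd90 at 31.7 ± 3.5 and prl65 at 12.7 ± 1.86 (SD, n = 5). Rds1 followed at 6.17 ± 1.05 and SPBPB21E7.11 at 2.14 ± 0.506 CPM per kb, and the other 4 were between 0.197 and 0.390. Divided by the exon length free of other counted genes instead, rds1 with overexpression came to 4086 ± 870 CPM per kb, within its spread of ish1 at 3634 ± 185, and mug147 came to 203 ± 50.1.

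The spread among the 5 overexpression libraries was not used to choose the genes. Replicate 1 was the lowest of the 5 for 7 of the 9 genes, all but mug147 and SPAC186.04c, and replicate 2 was the highest for 6 of them. Replicate 1 was also the lowest for 33.0% of the 4672 other tested genes and for 31 of the 55 (56.4%) among these with a log2 fold change above 5. Replicate 2 was the highest for 21.3% of the other tested genes and for 34.5% of those 55. Replicate 1 lay below the mean of the other 4 by 0.73 (log2) for hry1, 0.66 for SPBPB21E7.11, 0.64 for SPAC3G6.07 and 0.62 for rds1, but only by 0.13 for lsd90 and 0.14 for ish1. SPAC186.04c went the other way, with replicate 1 higher than the mean of the others by 0.15 (log2). Without overexpression replicate 1 the log2 fold changes were 10.57 for hry1, 8.67 for SPBPB21E7.11, 8.28 for SPAC3G6.07 and 6.34 for rds1.

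The coefficient of variation between overexpression libraries fell into a low and a high range. It was 5.08% for ish1, 5.14% for SPAC186.04c, 9.59% for prl65 and 9.92% for lsd90. It was 19.5% for SPBPB21E7.11, 20.3% for SPAC3G6.07, 21.3% for rds1, 24.7% for mug147 and 30.8% for hry1. The median over the 2899 tested genes with at least 50 CPM in overexpression libraries was 7.65% in overexpression libraries and 4.65% in controls. Ish1 and SPAC186.04c thus varied less than the median gene of that group, and the others more.

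**Figure D3:**
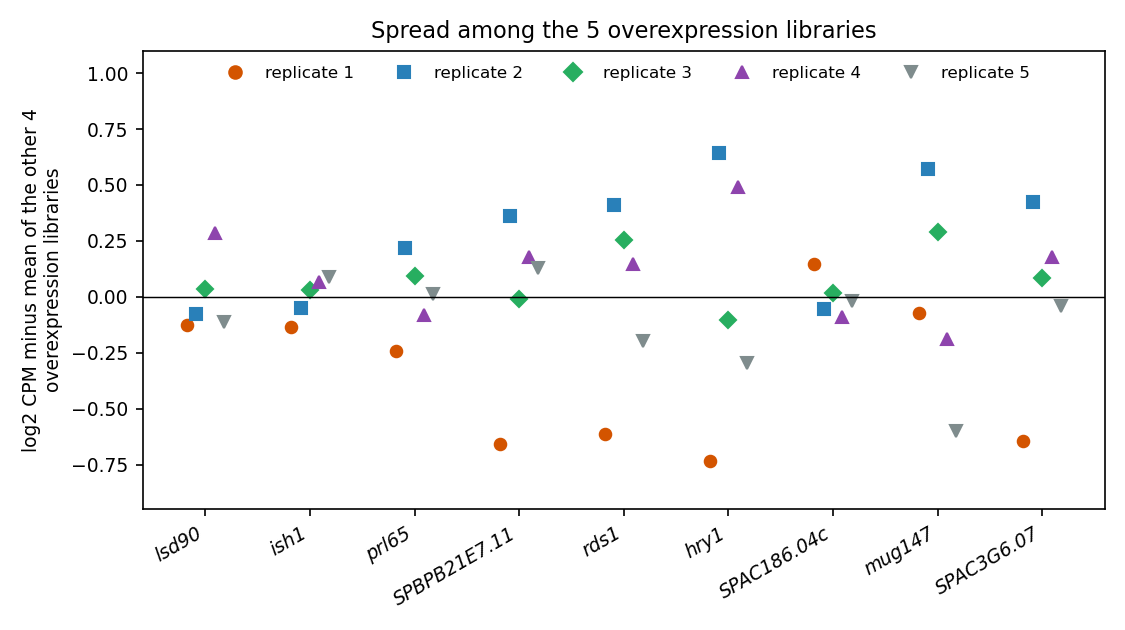
Log2 CPM of each overexpression library minus the mean of the other 4, for each of the 9 genes. Replicate 1 (circles) is lowest for 7 genes, with -0.73 for hry1, and is highest for SPAC186.04c at 0.15.

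Outside the 9, the gene with the most similar profile to each of them was found by the root-mean-square difference (RMS) of log2(CPM + 1), each gene centred on its own mean, over the 10 libraries. Ish1 had the closest match, adh8, an alcohol dehydrogenase gene, at an RMS of 0.0963. Zym1, which encodes a metallothionein, was the nearest gene outside the 9 to lsd90 (0.265), SPBPB21E7.11 (0.205) and prl65 (0.405). SPBC3H7.08c was nearest to rds1 (0.201) and SPAC3G6.07 (0.197), SPBC725.03 to mug147 (0.225), SPCC1393.12 to hry1 (0.217) and SPAC32A11.02c to SPAC186.04c (0.219). Within the 9 the closest pairs were rds1 with SPAC3G6.07 (0.268), mug147 with SPAC3G6.07 (0.285), mug147 with ish1 (0.302) and lsd90 with prl65 (0.318), so prl65 was nearer to lsd90 than to zym1. For the 4 genes with controls under 1 CPM the added 1 CPM sets the match. Hry1, with a log2 fold change of 10.42, differed by 7.26 on the log2(CPM + 1) scale, and SPCC1393.12, with 7.24, differed by 7.20 there. The fitted log2 fold changes of the matches of SPAC186.04c, SPAC3G6.07 and mug147, at 6.34, 6.22 and 5.83, were likewise below those of the 3 genes. The gap between the groups, by which the 9 were chosen, enters these distances.

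Position was not used to choose the genes. Counted in protein-coding genes from the nearer chromosome end, SPAC186.04c was 14th, SPBPB21E7.11 22nd and hry1 23rd, with SPAC3G6.07 64th and mug147 161st. The other 4 lay well inside the arms, at 688th (rds1), 770th (lsd90), 844th (ish1) and 1043rd (prl65). The 3 nearest protein-coding genes on each side of each of the 9 gave 54 neighbours, of which 42 were tested. In edgeR, 24 of these rose (57.1%) and 14 fell (33.3%), where 40.4% and 43.2% of all tested genes did, and their median log2 fold change was 0.29, against -0.03 over all tested genes. A log2 fold change above 5 was found in 8 of the 42, where 1.37% of all tested genes had one. Among these 8, SPBPB21E7.05, eno102, SPBPB21E7.02c and gdt1 had under 1 CPM in each control. They passed the filter on their overexpression libraries, so a large rise was partly set by being tested. These 8 lay beside hry1 (2 genes), SPBPB21E7.11 (4), mug147 (1) and SPAC186.04c (1), and beside none of the other 5.

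The melibiase gene mel1, next to hry1, rose to 67.3 ± 5.08 CPM with overexpression, against 1.34 ± 0.280 CPM in controls (SD, n = 5 each), or by 5.67 ± 0.12 (SE) on the log2 scale (adjusted p = 1.94e-15, edgeR). Behind it pcm2, for a protein repair methyltransferase, rose by 5.64 ± 0.16 (SE). On the other side of hry1 the sulfate transporter gene sul2 fell by 3.02 ± 0.14 (SE) on the log2 scale, to 31.1 ± 8.99 CPM with overexpression, against 253.9 ± 16.1 CPM in controls (SD, n = 5 each). Of the pair that flank hry1 directly, then, 1 rose and 1 fell.

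Around SPBPB21E7.11, 4 of the 5 tested neighbours rose. The catechol O-methyltransferase gene cmt2, the nearest on one side, rose to 225 ± 17.3 CPM with overexpression, against 5.75 ± 1.52 CPM in controls (SD, n = 5 each), or by 5.30 ± 0.13 (SE) on the log2 scale (adjusted p = 5.98e-14, edgeR). SPBPB21E7.02c, of the phosphoglycerate mutase family, had 1514 reads over the overexpression libraries and 7 over the controls, the enolase gene eno102 had 411 and 3, and SPBPB21E7.05 had 107 and 0. The next gene, aes1, fell by 2.08 ± 0.25 (SE) on the log2 scale, with 67.4, 31.9, 32.7, 20.6 and 36.7 CPM in overexpression libraries against 153 to 165 CPM in controls.

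Beside mug147, tam13, named for a transcript altered in meiosis, rose to 1154 ± 156 CPM with overexpression, against 31.6 ± 3.53 CPM in controls (SD, n = 5 each), and the difference was 5.18 ± 0.12 (SE) on the log2 scale. The transcription factor gene SPBC56F2.05c on its other side rose by 1.95 ± 0.08 (SE). Beside SPAC186.04c, gdt1 rose to 18.03 ± 6.21 CPM with overexpression, against 0.465 ± 0.155 CPM in controls (SD, n = 5 each), and the difference was 5.31 ± 0.32 (SE) on the log2 scale, while SPAC186.03, the L-asparaginase gene on its other side, had 3 reads over all overexpression libraries and 10 over all controls. The adjusted p in edgeR was 8.41e-10 or lower for tam13, SPBC56F2.05c and gdt1. Gdt1, with 26 reads over all controls, passed the filter only on its overexpression libraries, which limits what its p-value shows.

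Beside the other 5 genes no direct neighbour had a log2 fold change above 5. Those of lsd90, SPBC16E9.15 and SPBC16E9.20, rose by 1.44 ± 0.08 and 2.72 ± 0.22 (SE) on the log2 scale, and SPAC343.21 beside rds1 rose by 2.39 ± 0.12. Both direct neighbours of prl65 fell, upf2 by 0.29 ± 0.05 and imp4 by 0.71 ± 0.05 (SE). Next to SPAC3G6.07, erv1 fell by 0.57 ± 0.07 (SE), and rad2, at -0.35 ± 0.18 (SE), did not pass the test (adjusted p = 0.0804, edgeR). Rad2 was called lower with upper-quartile scaling (-0.54) and library totals (-0.71), without control replicate 4 (-0.44) and without overexpression replicate 5 (-0.43). Hba1 beside ish1 had a log2 fold change of 0.23 ± 0.05 (SE) and passed the test with TMM scaling, and of -0.12 with library totals. Prl65 thus stood between a pair of genes that fell.

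**Figure D4:**
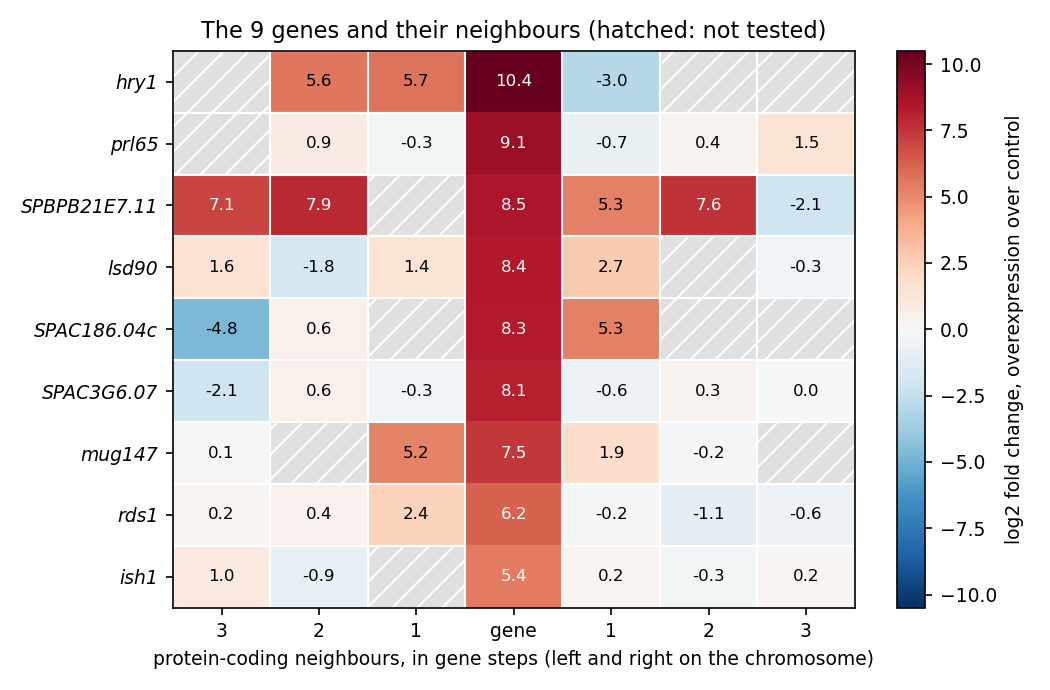
Log2 fold change (bag101 overexpression over control) of each of the 9 genes, in the middle column, and of the 3 nearest protein-coding genes on its left and right on the chromosome. Hatched cells were not tested; red is higher with overexpression and blue lower, and values above 5 outside the middle column stand beside hry1, SPBPB21E7.11, mug147 and SPAC186.04c.

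The wider programmes that the names or descriptions of some of the 9 genes point to were read from lists of other genes, in the same edgeR fit. Of 31 tested stress effector genes, 22 rose (71.0%) and 5 fell (16.1%), and their median log2 fold change was 1.94, where all tested genes had 40.4%, 43.2% and -0.03. The catalase gene ctt1 rose by 4.42 ± 0.08 (SE), the glutathione peroxidase gene gpx1 by 4.71 ± 0.09, zym1 by 8.30 ± 0.16 and the glutathione S-transferase gene gst3 by 3.67 ± 0.08 on the log2 scale. Ecl1, a regulator of chronological lifespan, fell by 1.05 ± 0.16, caf5 fell by 0.69 ± 0.08 and moc3 fell by 0.68 ± 0.07 (SE). Lsd90, at 8.42, stood close to zym1, but it was chosen by this value, so nothing is read from its place beside the list.

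Of 31 tested stress regulator genes, 23 rose (74.2%) and 5 fell (16.1%), and their median log2 fold change was 0.85. The Sty1 phosphatase gene pyp2 rose by 4.36 ± 0.09 (SE), the phosphatase gene ptc1 by 2.17 ± 0.05, the Sty1-activated kinase gene srk1 by 3.59 ± 0.09 and the zinc finger factor gene rsv2 by 3.76 ± 0.09 on the log2 scale. The kinase gene sck2 fell by 1.41 ± 0.09 (SE), mcs4 by 0.76 ± 0.06 and the MAP kinase kinase kinase genes win1 by 0.50 ± 0.05 and wis4 by 0.43 ± 0.05. With library totals 9 genes of this list were lower in place of 5.

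For rds1, whose known regulators include glucose, a list of glucose-repressed genes was read. Of its 17 tested genes 15 rose (88.2%) and 1 fell (5.88%), which became 0 with a mean of at least 10 CPM required, and their median log2 fold change was 1.55. The pyruvate decarboxylase gene pdc201 rose by 7.42 ± 0.14 (SE), the hexose transporter gene ght7 by 7.59 ± 0.17, agl1 by 7.97 ± 0.21 and the invertase gene inv1 by 5.92 ± 0.18 on the log2 scale. Of 22 tested glucose signalling genes 13 rose (59.1%) and 6 fell (27.3%), with a median of 0.38. Among these, pka1, the catalytic subunit of protein kinase A, rose by 2.46 ± 0.06 (SE), its regulatory subunit gene cgs1 by 1.56 ± 0.07, the AMPK subunit genes ssp2 by 1.02 ± 0.05 and amk2 by 1.14 ± 0.05. The hexokinase gene hxk2 fell by 1.41 ± 0.07, the glucose repressor gene scr1 fell by 0.90 ± 0.07, the corepressor gene tup11 fell by 0.65 ± 0.07 and git7 fell by 0.67 ± 0.07 (SE).

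For mug147, other genes with mug names and regulators of meiosis were read. Of 90 matched mug genes 60 were tested, of which 23 rose (38.3%) and 28 fell (46.7%), and their median log2 fold change was -0.27. Mug191 rose by 5.26 ± 0.11 (SE), mug168 by 3.72 ± 0.07, mug51 by 2.07 ± 0.07 and mug35 by 1.82 ± 0.08, whereas mug37 fell by 2.69 ± 0.21, mug176 fell by 1.58 ± 0.07, mug129 fell by 1.28 ± 0.08 and mug70 fell by 0.92 ± 0.07 (SE). Mug191 was the highest of the other tested mug genes. Mug147, at 7.46, was chosen by the size of its rise, so nothing is read from its place above them. Of 19 tested meiosis and mating regulators 6 rose (31.6%) and 8 fell (42.1%), with a median of -0.01. With library totals 3 were higher, and with a mean of at least 10 CPM required 5 were lower. Fus1, needed for cell fusion in mating, rose by 1.46 ± 0.12 (SE), the dynactin gene ssm4 by 1.16 ± 0.09, ste7 by 0.59 ± 0.08 and the meiotic factor gene mei4 by 0.54 ± 0.08, which lost its call with library totals. Mei3, the inducer of meiosis, fell by 2.05 ± 0.34, the pheromone gene map2 fell by 1.37 ± 0.21, fkh2 fell by 1.12 ± 0.05 and mmi1, which removes meiotic RNAs in growing cells, fell by 0.56 ± 0.06 (SE).

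For ish1, other genes of the nuclear envelope were read. Of 27 tested, 12 rose (44.4%) and 11 fell (40.7%), and their median log2 fold change was 0.07. Bis1, whose product binds Ish1, rose to 107 ± 8.68 CPM with overexpression, against 50.5 ± 3.39 CPM in controls (SD, n = 5 each), or by 1.08 ± 0.06 (SE) on the log2 scale (adjusted p = 4.59e-10, edgeR). Ned1, a lipin, rose by 2.38 ± 0.06, les1 by 1.94 ± 0.05 and the nucleoporin gene nup131 by 1.09 ± 0.06 (SE). The nucleoporin genes nup120, nup44 and nup132 fell by 0.66 ± 0.06, 0.45 ± 0.05 and 0.54 ± 0.07, and the KASH-domain gene kms2 fell by 0.93 ± 0.09 (SE). The largest log2 fold change of the list was that of kms1, at 6.88 ± 0.66 (SE). Kms1 had 65 reads over the overexpression libraries and 0 over the controls, and only 1.57% of its exon length was free of other counted features. Ish1 was chosen by its own log2 fold change of 5.43, so nothing is read from ish1 and bis1 both standing higher.

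For prl65, other genes with prl names mostly had too few reads to test: 47 were matched, 29 were at 0 reads in all libraries and 4 were tested. Of the 29 at 0 reads, 12 are wholly and 14 partly covered by other counted features, so 0 reads there does not show a low level. Of the 4 tested 1 rose and 2 fell, where 6 were lower without a filter on low counts and 6 with DESeq2. Prl12 rose to 2.44 ± 1.09 CPM with overexpression, against 0.657 ± 0.239 CPM in controls (SD, n = 5 each). Prl58 fell by 1.20 ± 0.18 and prl21 fell by 2.23 ± 0.45 (SE) on the log2 scale, and prl51 did not pass the test, at 0.02 ± 0.32 (SE, adjusted p = 0.95, edgeR). The 4 were all under 7 CPM in both groups on average, while prl65 averaged 3248 CPM with overexpression.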

How the data were processed

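Per the labels, 5 bag101 overexpression and 5 vector control samples were sequenced. The authors deposited whole-number read counts per gene, 1 table per sample, not normalized. Reads were trimmed with Trimmomatic 0.32, aligned with STAR 2.3.0e to build ASM294v2 and counted with HTSeq, as far as the submitters' processing notes name tools. Whether counting used strand is not given, but 444 of 465 features covered wholly by features on the opposite strand only were at 0 in all libraries, so overlapping genes are counted in part. The 5 rows that name no gene were left out. The reference was ASM294v3, used for names, sequences, overlaps and neighbours, with no coordinates given.

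Counts were tested with edgeR 4.0.16 (filterByExpr, TMM, robust quasi-likelihood F-test without covariates) in R 4.3.3, with Benjamini-Hochberg adjustment over 4681 genes and a threshold of 0.05. Adjusted p-values measure the spread between these samples, described as independent repeats in the series' design. The fit was tested on simulated data. Few genes changed there, against 83.6% called here, and all shared a common dispersion, so it does not check the scaling of these data. CPM are TMM-scaled. A count of 0 allows 3 reads, or 0.224 to 0.483 CPM, for counting error only. Alternatives were other scalings, filters, prior count, DESeq2 1.42.0, the replicate number as a block and leaving out each library.

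The 9 genes and the 8 gene lists were chosen with earlier results of these data known, and the 9 were removed from the lists. Genes named beside them were the nearest profile, the direct coding neighbours, protein relatives (blastp, e-value at most 1e-10), up to 4 called genes without group overlap with the smallest p per list and direction, and genes between the 9 in the order of fold change. Further neighbours, kms1, the RNAs that overlap the 9 genes and the antisense RNAs were named outside that rule, after their values were seen.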

Additional observations from a re-analysis of the deposited data

Results flagged for a closer look

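None of the 9 genes had a library far from the rest of its group. Of 190 groups of 5 libraries examined over genes named here, 13 had 1 library set apart from the rest. In these, its gap to the nearest other library was above Dixon's 95% critical value for the group's range. Chance flags about 1 in 20 groups. In overexpression replicate 1, inv1 had 24443 CPM (others 14396 to 17149), ecl1 92.6 (54.3 to 62.5), mug70 99.6 (75.1 to 82.1), git7 53.2 (39.5 to 43.1), sul2 46.7 (24.8 to 30.8) and adh8 1118 (1272 to 1333). In overexpression replicate 2, win1 had 148 CPM (others 132 to 136), pka1 1036 (1113 to 1137) and SPBPB21E7.10 0.106 (all others 0, 1 read). In the controls, mug191 had 63.9 CPM in replicate 3 (others 57.8 to 59.0), fus1 14.7 in replicate 4 (12.5 to 12.9), SPBC56F2.05c 22.7 in replicate 2 (20.7 to 21.3) and moc3 71.1 in replicate 1 (77.6 to 80.1).

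Reads that overlapped more than 1 gene, which no comparison used, made up 15.6 ± 1.07% of listed reads with overexpression and 12.2 ± 0.908% in controls (SD, n = 5 each). Rds1, mug147, SPBPB21E7.11 and ish1 are the 4 of the 9 genes whose exons overlap another counted gene that was matched to ASM294v3.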

How the results depend on the processing

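Over 18 alternatives the log2 fold changes of the 9 genes kept their direction, which is no check, since they were chosen by large rises. Their sizes ran from 9.71 to 10.72 for hry1, 8.06 to 8.47 for lsd90, 5.85 to 6.34 for rds1 and 5.08 to 5.48 for ish1. The median of the 9 moved to 7.98 with library totals, against 8.33. With library totals, 9 stress regulators were lower in place of 5 and 3 meiosis and mating regulators higher in place of 6, and hba1 turned to -0.12. With a mean of at least 10 CPM required, the count of lower glucose-repressed genes went to 0 (from 1), of lower meiosis and mating regulators to 5 (from 8), and of prl genes to 0 higher and 0 lower (from 1 and 2), since fewer genes were tested. Lower prl genes numbered 6 without a filter and 6 with DESeq2. The cause was not tested for library totals and DESeq2. The called genes numbered 3859 to 4027 when a library was left out, against 3912, and the median of the 9 genes ranged from 8.12 to 8.54. Mei4 lost its call with library totals (0.19).

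Replicate numbers did not pair the samples: correlations between same-numbered samples ran from -0.09 to 0.09, and replicate 2 was the only one that correlated best with its own number. With the replicate number as a block, 3899 genes were called, against 3912, and the median of the 9 genes was 8.34.

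Depth limits the fold of hry1, SPAC186.04c, SPAC3G6.07 and mug147, which rest on 7, 21, 14 and 24 control reads. The exact intervals of these genes are wider than their SE would give, so the SE understate their error. The overlaps of mug147, rds1, ish1 and SPBPB21E7.11 limit their levels.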
